A study of Mus musculus with 4 samples.

Results

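Hspa8, its processed pseudogene Gm15459 and 8 further chaperone or heat shock genes were examined in CD11b+ microglia from mice with brain amyloid. The genes were Hspa8, Gm15459, Hspa1a, Hspa1b, Hspa5, Hsp90aa1, Hsp90ab1, Hsph1, Dnajb1 and Bag3, found by gene symbol. All 10 had a row among the 49993 genes in the deposited tables, and all 10 passed the filter on low counts. The group was chosen by their values in the comparison of the same 4 libraries, above all the low count of Gm15459 in AD/KO, so that their differences between groups are given as a description, with no test.

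Bulk RNA-seq had been made from microglia of 10-month-old mice, isolated with magnetic beads against CD11b, a surface protein that other myeloid cells carry too. The AD group (n = 2 libraries) had the genotype APP/PS1+ asrij+/+, and the AD/KO group (n = 2 libraries) had APP/PS1+ asrij-/-. Both groups therefore carry the APP/PS1 transgenes, and no group without amyloid is compared here. The deletion of asrij (the gene Ociad1) was constitutive, so it was not limited to microglia. The labels give neither the sex of the mice nor whether the libraries came from separate mice or pools, so that p-values measure the spread between these libraries, which may be technical in part.

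Library totals ran from 13102622 to 19810076 counts. Ociad1 had 691 and 1032 reads in AD and 746 and 592 reads in AD/KO, so that the log2 fold change, AD/KO over AD, was −0.68 (standard error, SE, 0.29, adjusted p of 0.680 by edgeR's quasi-likelihood test). Its transcript was thus still counted in the libraries labelled AD/KO, and each direction below is a difference between labels. The 15 homeostatic microglia markers all had reads in every library. Their summed level was 21357 and 14712 CPM (counts per 1000000 counts of the library, with library sizes scaled by TMM, the trimmed mean of M-values) in AD and 22172 and 7326 CPM in AD/KO. AD/KO replicate 2 was the lowest library for these markers. It was the highest for the 10 astrocyte markers (1974 and 4660 CPM in AD, 4905 and 12462 CPM in AD/KO), the 10 neuron markers (219 and 789 CPM, then 611 and 1867 CPM) and the 10 oligodendrocyte markers (1694 and 2737 CPM, then 4004 and 8709 CPM).

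Heat shock proteins are chaperones that bind unfolded or misfolded proteins and help them fold, move or be destroyed. Hspa8 encodes Hsc70, the constitutive cytosolic member of the HSP70 family, which also uncoats clathrin vesicles and delivers proteins to the lysosome in chaperone-mediated autophagy. Hspa1a and Hspa1b encode the stress-inducible HSP70, whose transcription is switched on by the heat shock factor HSF1. In the brain these systems are studied for their handling of aggregating proteins. A processed pseudogene such as Gm15459 is a copy of a spliced messenger RNA that was inserted elsewhere in the genome, so that it lacks introns.

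The sequences of Hspa8 and Gm15459 are shown first, because they set what a read can tell about either gene. Hspa8 (gene ID 15481) lies at chr9:40801276-40805202 on the plus strand of GRCm38, the assembly that the submitters' processing notes call mm10. Gm15459 (gene ID 727711) lies at chr5:5781529-5783633 on the minus strand. On the other strand it is overlapped by the long non-coding gene Gm26825, whose transcript matches it at 100% over 1855 bases. Gm26825 had no counts under that name and so was not analysed here. In GENCODE M21 the 1941 bases of the Gm15459 transcript aligned to the whole Hspa8 coding sequence with 5 single-base differences and no gap, an identity of 99.7%. The longest stretch with no difference was 672 bases. Of the 5 differences, 4 were synonymous, and the other changes an amino acid if read in the Hspa8 frame. The coding sequence of Hspa8 holds 7 exon junctions, which Gm15459 has as continuous sequence.

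The 5 places are given below as 41 bases of each sequence, 5′ to 3′ in the direction of transcription of each gene, with the differing base in capitals. Substitutions name the Hspa8 base, the position counted from 1 at the first base of the start codon, and the Gm15459 base. A read from the coding part of spliced Hspa8 RNA that covers none of them has the same letters in both genes. G114A lies in exon 2 of Hspa8, at base 40802036 of chromosome 9.
Hspa8: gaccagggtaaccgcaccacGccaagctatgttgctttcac
Gm15459 (chr5:5783422-5783462): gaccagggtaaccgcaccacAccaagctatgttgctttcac
C414T lies in exon 4 of Hspa8, at base 40802741 of chromosome 9, just past an exon junction.
Hspa8: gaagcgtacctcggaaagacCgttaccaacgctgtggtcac
Gm15459 (chr5:5783122-5783162): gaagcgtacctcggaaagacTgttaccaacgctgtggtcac
C549T lies in exon 4 of Hspa8, at base 40802876 of chromosome 9.
Hspa8: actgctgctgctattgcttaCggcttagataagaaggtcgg
Gm15459 (chr5:5782987-5783027): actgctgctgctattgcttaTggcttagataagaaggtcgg
G1222A, the difference that is not synonymous, lies in exon 6 of Hspa8, at base 40803841 of chromosome 9.
Hspa8: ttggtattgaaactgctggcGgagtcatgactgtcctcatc
Gm15459 (chr5:5782314-5782354): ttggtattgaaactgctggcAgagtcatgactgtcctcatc
C1440T lies in exon 7 of Hspa8, at base 40804281 of chromosome 9.
Hspa8: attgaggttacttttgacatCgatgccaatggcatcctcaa
Gm15459 (chr5:5782096-5782136): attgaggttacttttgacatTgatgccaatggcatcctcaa

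**Figure D1:**
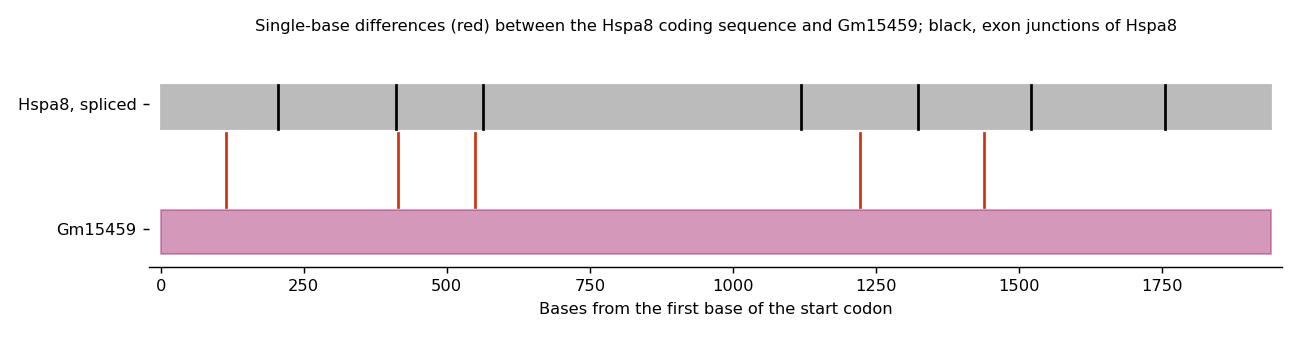
Map of the Hspa8 coding sequence (upper bar) and Gm15459 (lower bar), in bases from the start codon. Red lines mark the 5 single-base differences and black lines the 7 exon junctions of Hspa8; the longest stretch with no red line is 672 bases.

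Few reads were counted for Gm15459 in AD/KO, and the reads counted for Hspa8 were more numerous there. Gm15459 had 790 and 913 reads in AD and 128 and 124 reads in AD/KO. Its level was 57.3 and 56.1 CPM in AD and 6.67 and 6.73 CPM in AD/KO. The groups did not overlap, and the libraries of each group lay close together (56.7 ± 0.863 CPM in AD and 6.70 ± 0.0396 CPM in AD/KO, SD, n = 2 each). The log2 fold change of AD/KO against AD was −3.08 (SE 0.29), so that the AD/KO mean was 11.8% of the AD mean. Marker sums that also lay lower in both AD/KO libraries were those of border macrophages (133 and 100.2 CPM in AD, 69.1 and 59.5 CPM in AD/KO), monocytes (85.1 and 414 CPM, then 48.8 and 72.4 CPM) and lymphocytes (4.21 and 6.15 CPM, then 2.09 and 2.44 CPM). Gene by gene, 5 of 7, 3 of 5 and 2 of 6 were lower in both AD/KO libraries, beside 21.7% of all genes. Of the 6 lymphocyte genes, 1 was higher in both, and only 3 had reads in every library, so that sum is near the floor. The part of these cells in the level of Gm15459 was not tested. Of 308 pseudogenes with a mean of at least 5 CPM, Gm15459 had the lowest log2 fold change, and the next lowest was −2.36. The median of the 308 was −0.44. Among all 1798 pseudogenes tested Gm15459 ranked 7th from the lowest. Gm15459 was chosen for its low count in these libraries, so that its ranks are a description only.

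Hspa8 had 3362 and 3635 reads in AD and 6195 and 6291 reads in AD/KO. This was 244 and 223 CPM in AD and 323 and 341 CPM in AD/KO, with both AD/KO libraries above both AD libraries. The log2 fold change was 0.51 (SE 0.34). Scaled to the homeostatic microglia list it was 1.20, a scaling that moved the median of all genes from −0.05 to 0.57. In bulk RNA, fewer cells of a type and less RNA per cell cannot be told apart, and this holds for each level given here.

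Reads counted for either gene were then added, as they come from nearly the same sequence. The sum was 301 and 280 CPM in AD and 330 and 348 CPM in AD/KO, which gave a log2 fold change of 0.22 (SE 0.34). AD/KO minus AD, the difference of the means was 98.5 CPM for Hspa8, −50.03 CPM for Gm15459 and 48.4 CPM for the sum. The log2 fold change of Hspa8 was thus more than 1.5 times smaller once the pseudogene reads were added. Adding the other 5 Hspa8 pseudogenes in the tables left the log2 fold change of the sum at 0.22.

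The share of these reads counted for Gm15459 needs no scaling between libraries. It was 19.0% in AD replicate 1 (790 of 4152 reads, 95% exact binomial interval 17.8% to 20.3%) and 20.1% in AD replicate 2 (913 of 4548 reads, 18.9% to 21.3%). In AD/KO it was 2.02% in replicate 1 (128 of 6323 reads, 1.69% to 2.40%) and 1.93% in replicate 2 (124 of 6415 reads, 1.61% to 2.30%). These intervals cover counting error within a library only, and not the spread between libraries. The reads carry no molecular identifiers, so copies of the same molecule may be counted apart and the intervals may be too narrow. The share was 19.6% ± 0.741 in AD and 1.98% ± 0.0646 in AD/KO (SD, n = 2 each), a gap far wider than the distance between the libraries of either group. This gap is a description too, since Gm15459 was chosen by the same counts.

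Gm8355, Gm6210, Gm5575, Gm7232 and Gm8337 are further Hspa8 pseudogenes, at 95.4% to 98.7% identity to Gm15459. Together they had 9 and 13 reads in AD and 16 and 16 reads in AD/KO, which was 0.216% and 0.285%, then 0.252% and 0.249%, of all reads of the family. Their share lay in the same range in both groups. Gm8355 was the only one of them to pass the filter, with 5 and 10 reads in AD and 10 and 12 in AD/KO. The reads counted for Gm15459 may come from its own RNA, from Gm26825 RNA of the other strand or from Hspa8 RNA carrying the same bases at the 5 places. Which of these it was could not be tested, because the tables give counts per gene and neither bases nor strand. Levels and shares of Gm15459 are therefore those of reads assigned to it.

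**Figure D2:**
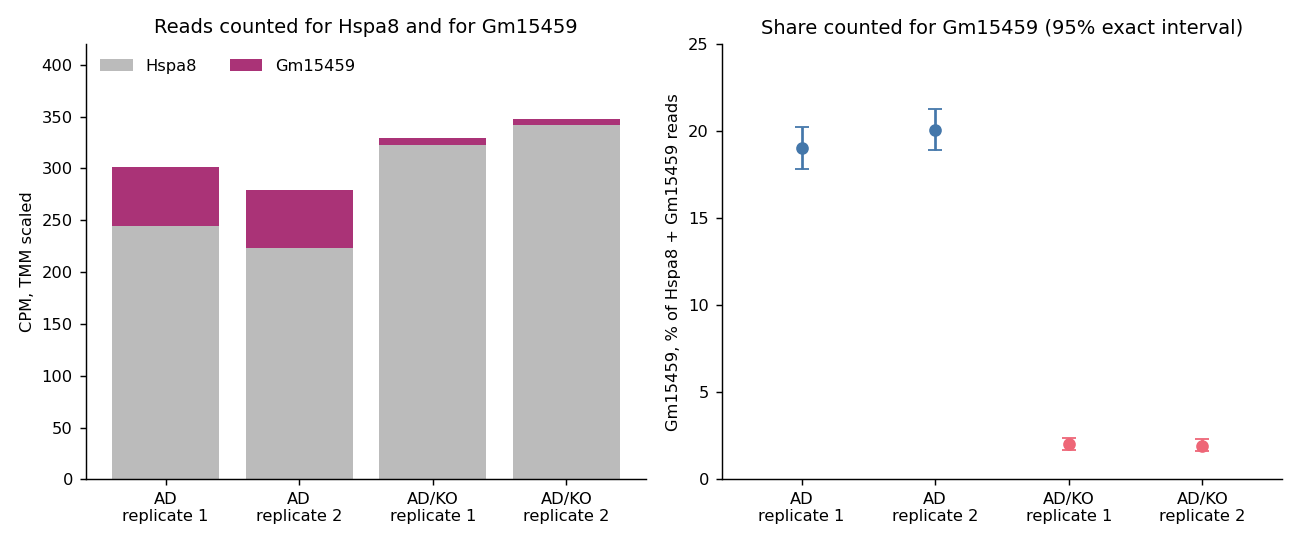
Left, CPM counted for Hspa8 (grey) and Gm15459 (purple) in each library, stacked. Right, the share of these reads counted for Gm15459 (%), with 95% exact binomial intervals; both AD libraries lie near 20% and both AD/KO libraries near 2%.

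The surroundings of both genes were examined next. Gm15459 lies on the same chromosome as Ociad1, the deleted gene, 67.5 Mb away. Hsph1 and the Hspa8 pseudogene Gm5575 (chr5:24209325-24209724) lie on that chromosome too. The nearest protein-coding genes with a mean of at least 1 CPM were named for their position, after the values of Gm15459 had been seen. Before Gm15459, Steap2, a metalloreductase 86.9 kb away, was at 1.60 and 2.89 CPM in AD and 2.92 and 8.79 CPM in AD/KO. After it, Steap4, a related metalloreductase, lay 2177 kb away and so was not adjacent. It was at 1.09 and 8.48 CPM in AD and 0.209 and 0.271 CPM in AD/KO. Neither passed the threshold (adjusted p of 0.680 for both, edgeR). Steap4 was highest in AD replicate 2, the library that also had the highest summed level of 8 neutrophil markers (4474 CPM, against 323, 462 and 519 CPM in the others). The part of neutrophil RNA in this value was not tested. The nearest genes of Hspa8 by the same rule, Clmp (15.7 kb away) and Crtam (167.6 kb away), had overlapping groups.

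The introns of Hspa8 hold 3 small nucleolar RNA genes, Snord14c (intron 5), Snord14d (intron 6) and Snord14e (intron 8), which are copies of the U14 RNA that takes part in ribosomal RNA processing. They are transcribed from the same strand as their host. Snord14c had 7 and 6 reads in AD and 103 and 27 in AD/KO, so that the log2 fold change was 2.95 (SE 0.89). Snord14d had 20 and 15 reads in AD and 163 and 41 in AD/KO, so that the log2 fold change was 2.17 (SE 0.84). Both were highest in AD/KO replicate 1, unlike Hspa8, which was slightly higher in replicate 2. Snord14e had 27 and 40 reads in AD and 27 and 32 in AD/KO, so that the log2 fold change was −0.49 (SE 0.56), in the other direction. None of the 3 passed the threshold (adjusted p of 0.680, 0.680 and 0.752, edgeR quasi-likelihood). Snord14c and Snord14d are 97.7% identical over 86 bases, so the split of reads between them is uncertain.

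Hspa1a and Hspa1b, the heat-inducible HSP70 genes, had few reads in all 4 libraries. Hspa1a (gene ID 193740, chr17:34969359-34972156) had 11 and 8 reads in AD and 11 and 53 in AD/KO, or 0.798 and 0.492 CPM, then 0.573 and 2.88 CPM. AD/KO replicate 2 stood apart and the groups overlapped. Hspa1b (gene ID 15511, chr17:34956429-34959238) had 10 and 20 reads in AD and 24 and 43 in AD/KO, or 0.726 and 1.23 CPM, then 1.25 and 2.33 CPM. Here AD/KO replicate 1 lay only just above AD replicate 2. The transcripts of this pair are 99.2% identical over 2201 bases, so that only their sum is firm. The sum was 1.52 and 1.72 CPM in AD and 1.82 and 5.21 CPM in AD/KO, so that the log2 fold change was 1.11 (SE 0.71). Hspa1a alone had a log2 fold change of 1.41 (SE 0.98), and of −0.15 without AD/KO replicate 2. That of Hspa1b was 0.86 (SE 0.69), and 0.36 without AD/KO replicate 2.

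The promoters of this pair and of Hsph1 are shown because HSF1, the factor that induces heat shock genes, binds repeats of GAA in alternating orientation. RefSeq promoters (250 bases before to 50 after the gene start, GRCm38.p6) were at hand for 6 of the 10 genes. Those of Hspa1a and Hspa1b differed at 4 of 300 bases. The motifs searched were GAANNTTC and TTCNNGAA, each its own reverse complement, and they may overlap each other. Of 32851 promoters, 7.86% held the first, 8.52% the second and 15.1% either. Among the 6 genes, Hspa1a, Hspa1b, Hsph1 and Bag3 held a match and Hspa5 and Dnajb1 held none. The only match of Bag3 begins 42 bases after the start. Hspa1a and Hspa1b are near copies, and Hsph1 and Dnajb1 had 2 promoters each, so this count is not comparable with the share of all promoters. The matches upstream of a start used in the promoter table are printed with the motif in capitals; a match of letters is a description and not a bound site. The match lies 104 bases before the start of Hspa1a and Hspa1b, in the same 48 bases, and 33 or 54 bases before the transcript starts that the table uses for Hsph1. The annotated span of Hsph1 begins further upstream, so that its match lies inside the gene as given below.
Hspa1a (chr17:34972233-34972280, minus strand): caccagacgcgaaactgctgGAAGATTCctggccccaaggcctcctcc
Hspa1b (chr17:34959315-34959362, minus strand): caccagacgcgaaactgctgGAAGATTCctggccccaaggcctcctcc
Hsph1 (chr5:149636342-149636389, minus strand): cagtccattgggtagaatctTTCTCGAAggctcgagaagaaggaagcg

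Hsph1 (gene ID 15505, chr5:149616843-149636498) encodes HSP110, which exchanges the nucleotide of HSP70 and takes part in dissolving aggregates. It was at 20.8 and 21.6 CPM in AD and 28.3 and 61.2 CPM in AD/KO. Both AD/KO libraries lay above both AD libraries, and replicate 2 far above replicate 1. The log2 fold change was 1.07 (SE 0.45), and 0.42 without AD/KO replicate 2.

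The cytosolic HSP90 genes encode chaperones that hold kinases and receptors in an active form. Hsp90ab1 (gene ID 15516, chr17:45567778-45573261), the constitutive form, was at 316 and 360 CPM in AD and 398 and 549 CPM in AD/KO. Its groups did not overlap, and the log2 fold change was 0.49 (SE 0.40), or 0.25 without AD/KO replicate 2 and 0.75 without AD/KO replicate 1. Hsp90aa1 (gene ID 15519, chr12:110691036-110696395), the inducible form, was at 55.2 and 73.8 CPM in AD and 67.5 and 124 CPM in AD/KO. AD/KO replicate 1 lay between the AD libraries, and the log2 fold change of 0.57 (SE 0.41) became 0.076 without AD/KO replicate 2. Its near-identical pseudogenes Gm12346, Gm5511 and Gm5844 together took 3.43% and 4.69% of the reads in AD and 3.93% and 3.02% in AD/KO. This share had overlapping groups, unlike that of Gm15459.

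Hspa5 (gene ID 14828, chr2:34772090-34776529) encodes BiP, the HSP70 of the endoplasmic reticulum. It was at 304 and 230 CPM in AD and 271 and 175 CPM in AD/KO, with overlapping groups and the lowest value in AD/KO replicate 2. The log2 fold change of −0.26 (SE 0.40) was 0.033 without that library and 0.27 with scaling to the homeostatic microglia list. Dnajb1 (gene ID 81489, chr8:83608175-83612653), the J-protein that delivers clients to HSP70, was at 23.8 and 27.8 CPM in AD and 29.8 and 27.4 CPM in AD/KO, so that the log2 fold change was 0.15 (SE 0.28). Bag3 (gene ID 29810, chr7:128523583-128546981), a nucleotide exchange factor that directs HSP70 clients to autophagy, was at 26.5 and 19.0 CPM in AD and 24.6 and 18.3 CPM in AD/KO, so that the log2 fold change was −0.08 (SE 0.35). The AD and AD/KO values overlapped for both genes, and for Bag3 the difference between replicates was larger than that between groups.

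**Figure D3:**
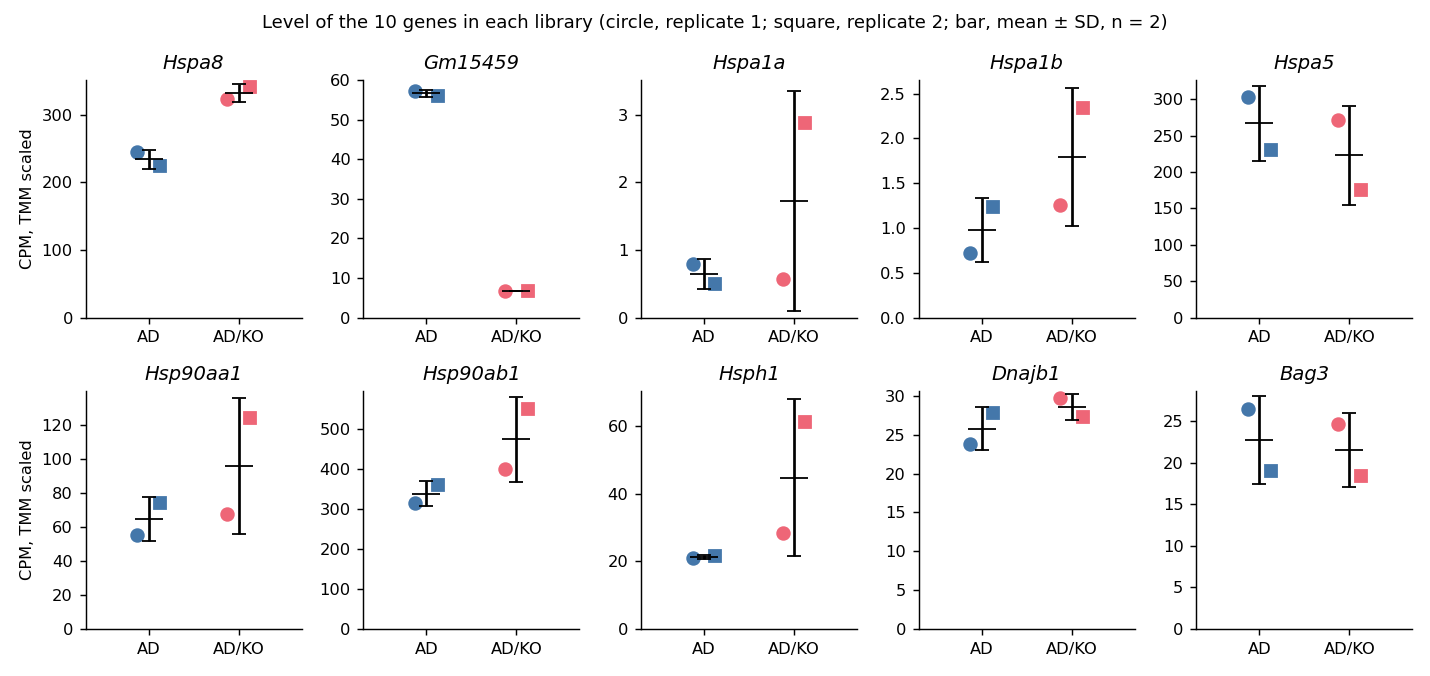
CPM of each of the 10 genes in each library (AD blue, AD/KO red; bars, mean ± SD, n = 2 libraries), each panel from 0. Gm15459 is low in both AD/KO libraries, and Hspa8, Hspa1b, Hsp90ab1 and Hsph1 are higher in both than in AD.

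Counted together, 4 of the 10 genes (Hspa8, Hspa1b, Hsp90ab1 and Hsph1) were higher in both AD/KO libraries, as were 20.3% of all 21439 genes tested. Gm15459 alone was lower in both, as were 21.7% of all genes. The median log2 fold change was 0.50 over the 10 genes and −0.05 over all genes. This median and these counts use the comparison that chose the genes, so nothing is read from them.

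Several of the 10 genes also differed between the replicates of AD/KO. In 6 of the 10 (Hspa8, Hspa1a, Hspa1b, Hsp90aa1, Hsp90ab1 and Hsph1) AD/KO replicate 2 was the highest library, and in Hspa5 and Bag3 it was the lowest. AD/KO replicate 2 was also the library with the most astrocyte, neuron and oligodendrocyte RNA and the least homeostatic microglia RNA, with the values given above. With the neuron and astrocyte level as a covariate, the log2 fold change was 0.40 for Hsph1, 0.16 for Hsp90ab1, 0.17 for Hspa1a, 0.056 for Hspa1b and −0.10 for Hsp90aa1. It was 0.53 for Hspa8 and −3.07 for Gm15459 with the covariate and 0.51 and −3.08 without it. That fit leaves 1 residual degree of freedom. The covariate, a mean log2 CPM, was 5.07 and 6.52 in AD and 6.46 and 7.89 in AD/KO. It rose with the group label, so the fit cannot fully separate it from the label. Whether RNA of other cell types set these levels was not tested. The 18 immediate early genes, like heat shock genes, can be induced while tissue is dissociated. Their summed level was 543 and 524 CPM in AD and 563 and 455 CPM in AD/KO, with overlapping groups. Of the 18, 6 were higher in both AD/KO libraries and 6 lower in both, beside 20.3% and 21.7% of all genes. The sum thus joins genes that moved in opposite directions, and the part of dissociation was not tested.

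**Figure D4:**
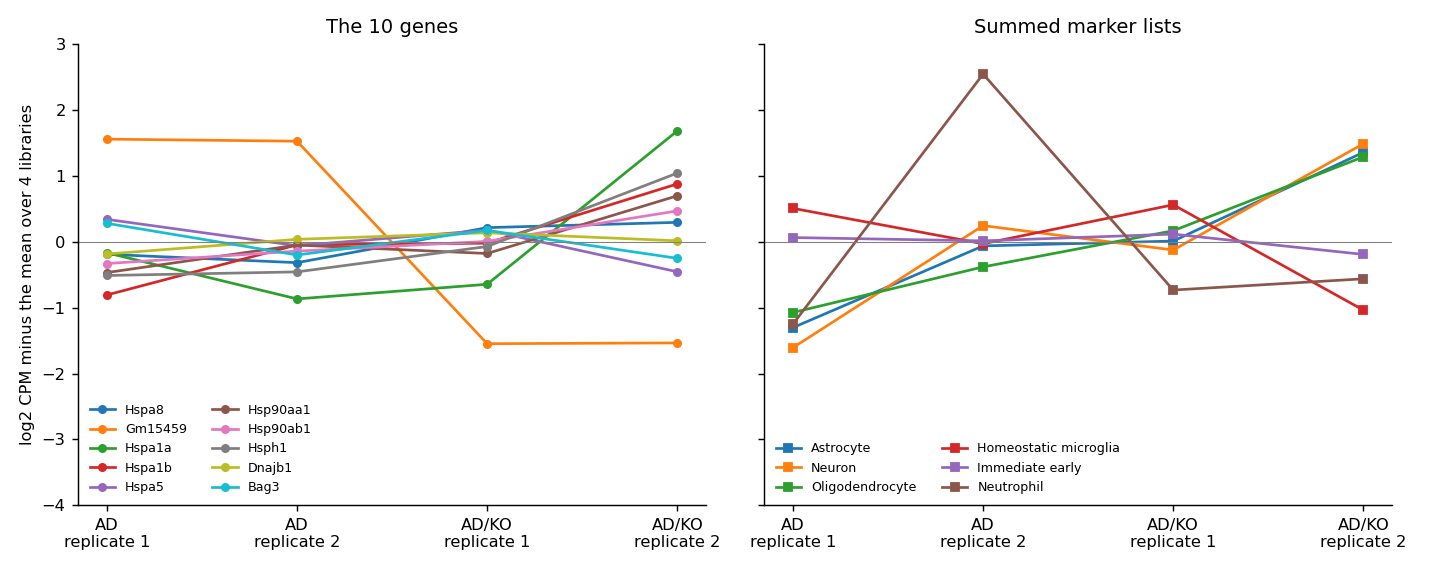
Left, log2 CPM of each of the 10 genes minus its mean over the 4 libraries, with libraries ordered by astrocyte marker level; right, the same for the summed CPM of 6 marker lists. Lines only join the points of a gene or list. Gm15459 is lower in both AD/KO libraries, and Hspa8, Hspa1b, Hsp90ab1 and Hsph1 are higher in both. Hspa8, Hspa1b, Hsp90ab1, Hsph1, Hsp90aa1 and Hspa1a peak in AD/KO replicate 2, as the astrocyte, neuron and oligodendrocyte lists do.

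Levels were compared between genes per kilobase of the longest annotated transcript, over all 4 libraries. Hsp90ab1 had the highest level, at 161 ± 40.2 CPM per kilobase (SD, n = 4), followed by Hspa8 at 118 ± 24.2, Hspa5 at 66.7 ± 15.1 and Hsp90aa1 at 24.4 ± 9.19. Dnajb1 (9.07 ± 0.828), Hsph1 (8.67 ± 5.02) and Bag3 (8.63 ± 1.58) changed order between libraries. Hsp90ab1 lay above Hspa8, and Hspa8 above Hspa5, in each of the 4 libraries. Hspa1b (0.494 ± 0.242) and Hspa1a (0.399 ± 0.383) were lowest in each library, and their order also changed between libraries. Gm15459 fell between these sets by label, at 29.5 and 28.9 CPM per kilobase in AD, next to Hsp90aa1, and at 3.44 and 3.47 in AD/KO, under Bag3. The constitutive Hspa8 was therefore far above the inducible Hspa1a and Hspa1b in every library.

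The wider chaperone network was read from 68 genes outside the 10, all of them tested. Over all genes, edgeR's quasi-likelihood test called 0 of 21439 at an adjusted p under 0.05 (0.00%). At an unadjusted p under 0.05 it called 579 higher (2.70%) and 493 lower (2.30%) in AD/KO. With p adjusted over all genes, 0 of the 68 passed the threshold in either direction, and 0 had an unadjusted p under 0.05. DESeq2 also called 0 of the 68, against 88 of the 19993 genes to which it gave an adjusted p (0.440%). The median log2 fold change of the 68 was 0.03, with 37 positive and 31 negative. Both AD/KO libraries were above both AD libraries in 15 of the 68 and below in 12, shares near those of all genes.

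Medians of the log2 fold change varied between roles, with no gene past the threshold. The 4 small heat shock proteins, which hold unfolded proteins without using ATP, had a median of 1.20, with Cryab (alpha B-crystallin, abundant in glia) at 9.73 and 22.8 CPM in AD and 28.8 and 51.7 CPM in AD/KO. Hspb1, another member, was at 0.218 and 0.615 CPM in AD and 0.469 and 1.36 CPM in AD/KO. It had only 3 and 10 reads in AD and 9 and 25 in AD/KO, with overlapping groups. The groups also overlapped for Hspb6 (log2 fold change 0.02) and Hspb8 (1.62). Only Cryab of the 4 was higher in both AD/KO libraries, as were 20.3% of all genes. The 12 genes of endoplasmic reticulum folding and the unfolded protein response had a median of −0.27, with 10 negative, like Hspa5, where 11314 of all 21439 genes were negative. Only 2 of the 12 were lower in both AD/KO libraries, as were 21.7% of all genes. All 12 were lowest in AD/KO replicate 2, a share that was not counted over all genes. The summed level of the homeostatic microglia markers was also lowest in that library, and its part in these values was not tested. Pdia3, a disulfide isomerase with the lowest log2 fold change of the 68, was at 299 and 252 CPM in AD and 241 and 112 CPM in AD/KO. The medians were 0.18 for 9 other HSP70 genes, 0.03 for 13 J-proteins, 0.30 for 6 nucleotide exchange factors, 0.13 for 11 HSP90 partners and −0.06 for 10 chaperonin genes. In that order, 1, 3, 2, 6 and 0 genes were higher in both AD/KO libraries, and 2, 0, 1, 1 and 5 were lower in both. Over all genes these shares were 20.3% and 21.7%, and the difference of the HSP90 and chaperonin lists from them was not tested. The 3 genes of the heat shock factor list had a median of 0.38, with 2 higher in both and 1 lower in both.

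The smallest p-values of the network belonged, upwards, to Dnajb5, Hspa2 and Cryab. The log2 fold change was 0.88 (SE 0.36) for Dnajb5 and 1.51 (SE 0.62) for Hspa2, and the AD/KO mean of Cryab was 247% of its AD mean. Dnajb5, a J-protein, was at 31.4 and 37.2 CPM in AD and 47.5 and 78.5 CPM in AD/KO. Hspa2, an HSP70 gene, was at 4.14 and 8.36 CPM in AD and 10.6 and 25.2 CPM in AD/KO. These 3 genes were highest in AD/KO replicate 2, the library with the highest astrocyte level, and with the neuron and astrocyte covariate their log2 fold changes were 0.37, 0.38 and 0.38. Downwards they belonged to Chordc1, Cct4 and Hsf2, with log2 fold changes of −0.62 (SE 0.34), −0.49 (SE 0.32) and −0.56 (SE 0.40), which were −0.23, −0.11 and −0.02 with that covariate. The covariate itself differed between the groups, and the part of other cell types in these values was not tested. Chordc1, an HSP90 co-chaperone, was at 28.8 and 22.1 CPM in AD and 19.0 and 14.0 CPM in AD/KO. The adjusted p was 0.680 for the first 5 and 0.682 for Hsf2 (edgeR). Hsf1, which encodes the main heat shock factor, was at 58.8 and 54.8 CPM in AD and 68.8 and 79.3 CPM in AD/KO, also with no overlap, but its adjusted p was 0.682 (edgeR).

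**Figure D5:**
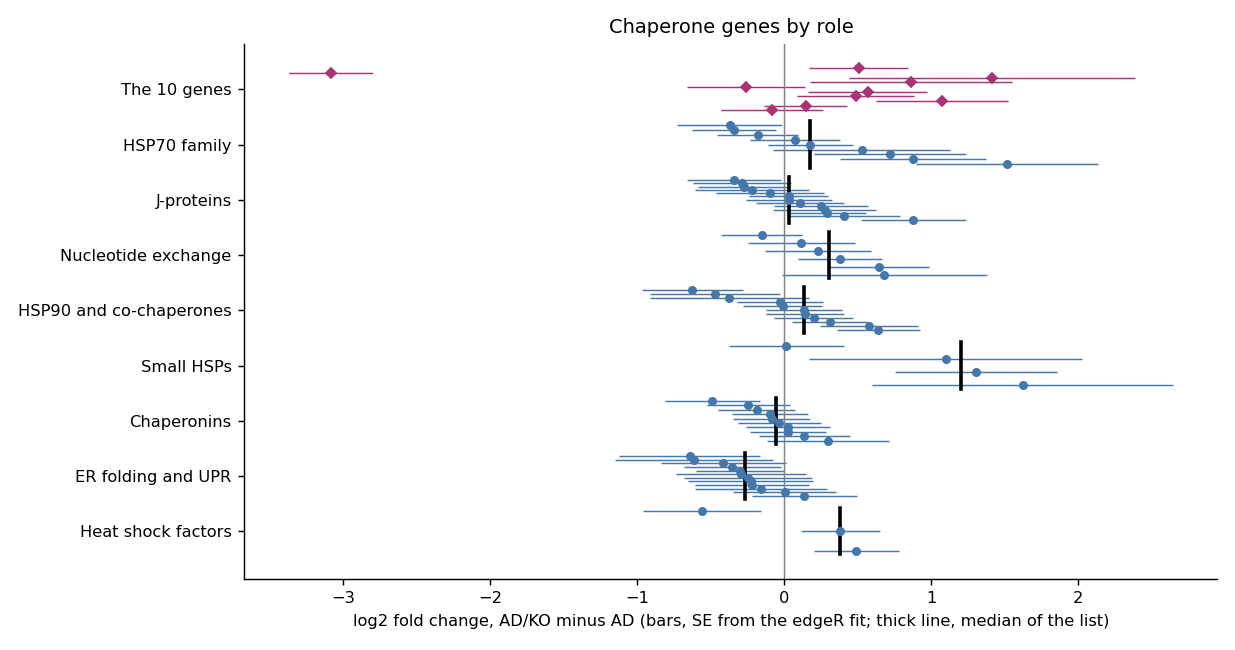
log2 fold change of AD/KO minus AD with its SE from the edgeR fit, for the 10 genes (purple diamonds) and for 68 further chaperone genes by role (blue; thick line, median). Gm15459 stands at −3.08, and the 68 genes lie between −0.64 and 1.62.

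The genes with the pattern most like each of 3 members were sought among 13769 genes with a mean of at least 5 CPM, by the root mean square difference between log2 CPM profiles centred on their means, over the 4 libraries. For Hspa8 they were Rmnd5b (difference 0.0093), Ankrd54 (0.019) and Tef (0.021). Rmnd5b, for example, was at 23.3 and 21.0 CPM in AD and 30.3 and 32.3 CPM in AD/KO. For Gm15459 they were Clec7a (0.061), a receptor for beta-glucan known from disease-associated microglia, Gm13391 (0.117) and Igf1 (0.126), a growth factor. Clec7a was at 78.5 and 85.3 CPM in AD and 10.1 and 9.88 CPM in AD/KO. For Hspa1a the nearest genes, Dlk1 (0.382), Lgi2 (0.400) and 4933439C10Rik (0.420), were much less alike. Likeness over 4 libraries is given as a description.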

How the data were processed

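The authors deposited raw counts of reads for each gene symbol, as whole numbers, in a separate table for every library. The submitters' processing notes name HISAT2, featureCounts, DESeq2 1.30.0 and mm10. The annotation, the use of strand and the treatment of reads that match several places, which decide how reads are split between Hspa8 and Gm15459, are not given in the sources used here. Per library, 11 lines held no count and were left out. Groups came from the genotype labels, and 0 columns lacked a sample. Genes were filtered with filterByExpr (minimum count 10, minimum total 15), scaled by TMM and tested with the quasi-likelihood F-test of edgeR 4.0.16 in R 4.3.3, two-sided, with Benjamini-Hochberg adjustment over all genes at a threshold of 0.05. An SE is the log2 fold change divided by the square root of F. The procedure was run on simulated data with independent libraries and large fold changes only. That run does not cover smaller changes or differences shared by replicates. Alternatives were DESeq2 1.42.0, its size factors, scaling to 15 homeostatic microglia genes, other filters, a replicate block, a neuron and astrocyte covariate, summed near-identical genes and leaving out each library. Near-identical transcripts were sought with BLAST 2.17.0 (at least 95% identity over 100 bases) in GENCODE M21. Gene positions follow RefSeq (GRCm38.p6) and start at 1. The 10 genes, the lists and the tests were chosen with earlier results of these data known. The rule for named genes took all 10, Ociad1, the Hspa8-related genes, the 3 smallest p-values of the network in each direction where fewer than 3 passed, and the 3 most similar profiles of Hspa8, Gm15459 and Hspa1a. Other genes named (Pdia3, Hspb1, Hspb6, Hspb8, Hsf1 and the neighbours of Hspa8 and Gm15459) were chosen after values were seen.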

Additional observations from a re-analysis of the deposited data

How the results depend on the processing

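Of 114 values of the 10 genes under alternatives, 82 moved by less than 1 SD between replicates, 22 moved further and 10 changed sign. The cause was not tested. The SD was each gene's own, from 2 libraries a group, so the count depends on how noisy a gene is. Hspa1a, at 1.41 and then 2.52 with scaling to the homeostatic microglia list, counted as less than 1 SD. Gm15459, at −3.08 and then −3.03 with DESeq2 size factors, counted as further. Scaling to the homeostatic microglia list raised the median of all genes from −0.05 to 0.57, and then Hspa5 was at 0.27, Bag3 at 0.51 and Cct4 at 0.059. With the neuron and astrocyte covariate Hspa5 was at 0.22, Bag3 at 0.36 and Hsp90aa1 at −0.10. Leaving out each library gave −0.15 to 2.20 for Hspa1a (the lowest without AD/KO replicate 2), −0.56 to 0.033 for Hspa5 (the highest without AD/KO replicate 2) and −0.26 to 0.17 for Bag3 (positive without AD replicate 1 or AD/KO replicate 2). Gm15459 ran from −3.10 to −2.42 except as part of the summed Hspa8 family, at 0.22.

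The number of genes called was 0 with edgeR (1072 at an unadjusted p under 0.05), 88 with DESeq2, 8 with the covariate and 0 to 524 with a library left out (524 without AD replicate 2, 48 without AD replicate 1). Leaving out a library leaves 1 in its group, which is then assumed to vary like the other group. Of the 68 network genes 0 were called with edgeR, DESeq2 or the covariate. Replicates 1 and 2 share only a number between the groups, although their deviations correlated at 0.68 across genes. With the replicate block 4333 of 21439 genes were called, 2878 higher and 1455 lower in AD/KO, and 7 of the 68 were called, all higher. Like the fit with the covariate, this fit leaves 1 residual degree of freedom. The neuron and astrocyte level was higher in replicate 2 in both groups (5.07 and 6.52 in AD, 6.46 and 7.89 in AD/KO, as mean log2 CPM). Its part in the correlation and in these calls was not tested.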
